A study of Homo sapiens with 6 samples.

Results

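The semaphorins, plexins and neuropilins were followed in A2780 cells as 31 genes, chosen by name among the protein-coding genes of 44591 listed genes: semaphorins of classes 3 to 7 (20 genes), plexins A to D (9 genes) and neuropilins (2 genes). RNA was taken from A2780, a human ovarian cancer cell line of wild-type genotype, cultured for 48 h with recombinant human CRMP2 (r-CRMP2) added to the medium at 40 ng/ml or left untreated, with 3 libraries of polyadenylated RNA in each group. The study followed CRMP2, the product of DPYSL2, as a protein that fibroblasts of the tumor release, and the comparison asked which genes differed in cancer cells given it. The labels do not say whether the libraries of a group came from separate cultures on separate days, so the p-values measure the spread between these libraries.

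Semaphorins are secreted or membrane-bound signaling proteins, and plexins are the receptors that most of them bind. Neuropilins are co-receptors that hold secreted class 3 semaphorins on plexin A receptors and also bind vascular endothelial growth factors. The system is best known from growing axons, where a class 3 semaphorin bound to a neuropilin and a plexin makes the growth cone collapse. CRMP2 was named collapsin response mediator protein because it acts inside the cell in this response, by binding tubulin and responding to kinases downstream of the plexin. Plexins signal through a domain inside the cell, and through it they change adhesion and the cytoskeleton. In epithelial tumors and blood vessels the same genes are known for effects on migration, invasion and vessel growth, in both directions depending on the ligand and receptor.

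The libraries held between 21888530 and 25711353 counts, of which the 31 genes took between 0.201% and 0.218%. No library was a duplicate of another, since the chi-square between replicates was 3.62 to 10.3 per degree of freedom. Levels are given in 2 scales. TPM (the deposited values, divided by gene length and brought to the same total in each library) served to compare genes with each other, and CPM (counts brought to a common total after TMM scaling, which levels the bulk of genes) served to compare the groups. The scaling bears on every direction given here: TMM factors were 1.1 to 1.12 in the untreated group and 0.878 to 0.922 in the r-CRMP2 group, and with library size alone the fold changes of all genes moved, their median by -0.31 on the log2 scale. Epithelial genes fitted the label in part: the keratins KRT8, KRT18 and KRT7 were abundant in the untreated group (1360, 1990 and 952 TPM) and EPCAM was at 6.3 TPM, whereas CDH1 and WT1 were near 0 in all libraries. Of 9 ovarian or epithelial markers, 2 were higher and 2 lower of 7 tested, and the direction of their sum turned with the scale: it was 3415 to 3531 CPM in untreated and 3536 to 3823 CPM in r-CRMP2 libraries, but 4440 to 4710 and 3760 to 4080 in TPM. Of 11 fibroblast markers, 4 were higher and 3 lower of 10 tested, with a sum of 613 to 686 CPM in untreated and 538 to 562 CPM in r-CRMP2 libraries. COL1A1, which made most of that sum (mean 419 and 316 CPM), PDGFRB and POSTN were lower. COL1A2, PDGFRA, LUM and THY1 were higher. Of all genes tested, 28.2% were higher and 30.1% lower at an adjusted p under 0.05. The labels name A2780 cells alone, so the markers were read as gene levels in that culture and not as amounts of cell types.

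The family was broadly expressed, with a wide spread of levels. SEMA3B had the highest level at 232 TPM (mean of 6 libraries), followed by SEMA4B (160 TPM), PLXND1 (126 TPM) and SEMA3F (111 TPM), the 4 genes above 100 TPM. A further 10 genes lay between 10 and 100 TPM, 5 between 1 and 10 TPM and 12 below 1 TPM. The upper group held PLXNB2 (90.4 TPM), SEMA6B (67 TPM), PLXNA3 (40.1 TPM), PLXNB1 (23.9 TPM), SEMA6D (17 TPM), SEMA4C (15.3 TPM), PLXNA1 (13.4 TPM), PLXNB3 (12.2 TPM), SEMA7A (10.8 TPM) and NRP1 (10.2 TPM). The highest levels were thus those of ligands of classes 3, 4 and 6 and of plexins B, D and A, while class 5 and PLXNC1 stayed under 1 TPM. NRP2, the other neuropilin, had 1.25 TPM.

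**Figure D1:**
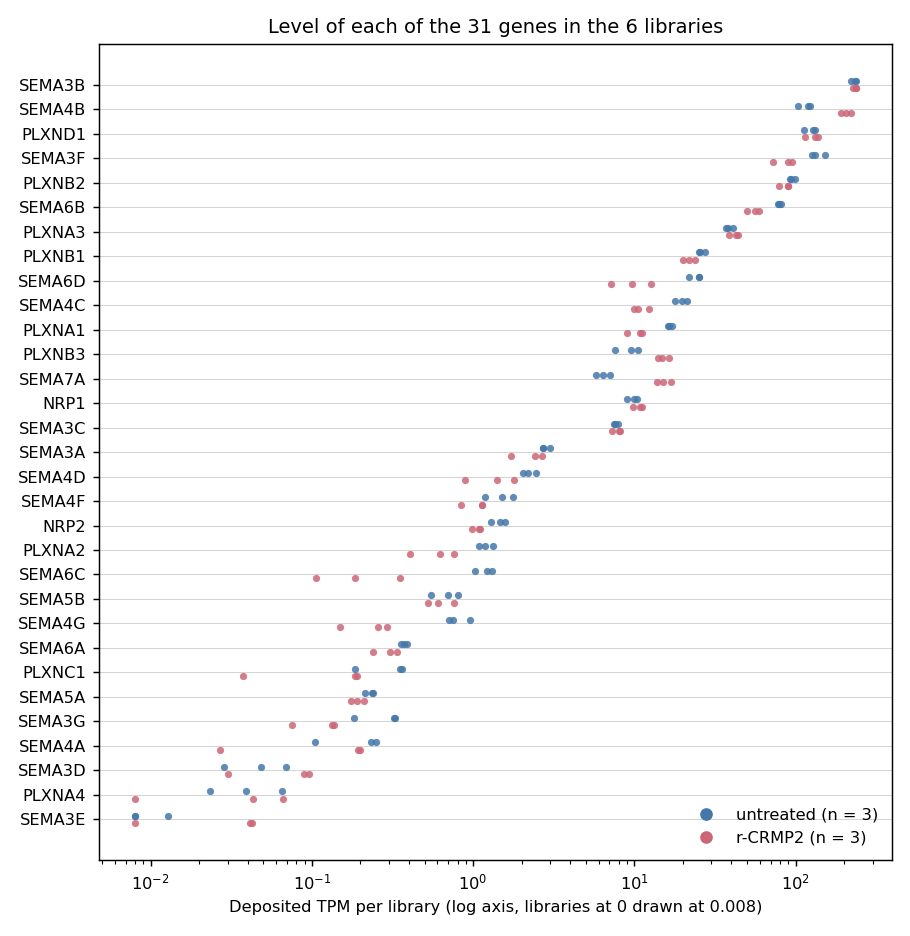
Deposited TPM of the 31 genes in each of the 6 libraries on a log axis, with 1 point per library and genes ordered by their mean. Points for SEMA7A, SEMA4B and PLXNB3 sit apart to the right in the r-CRMP2 group, while those of SEMA3B, PLXND1 and NRP1 overlap between the groups on this scale.

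Of the 31 genes, 26 had enough counts to be tested. In the r-CRMP2 group 9 of them rose (SEMA3B, SEMA3C, SEMA4B, SEMA7A, PLXNA3, PLXNB2, PLXNB3, PLXND1 and NRP1) and 8 fell (SEMA3F, SEMA4C, SEMA4G, SEMA6B, SEMA6C, SEMA6D, PLXNA1 and PLXNA2) at an adjusted p under 0.05 from edgeR's quasi-likelihood test. These 17 are 65.4% of the genes tested, beside 58.2% of all 16222 genes tested (28.2% higher and 30.1% lower), so the share called was close to that of the whole transcriptome. Past a log2 fold change of 1 as well, 3 rose and 2 fell, which is 19.2% beside 14% of all genes (5.12% higher and 8.86% lower). The median log2 fold change was 0.00 for the family and -0.03 for all genes, and single genes ranged from -2.15 to 1.57. The CPM of the groups did not overlap in the same 17 genes, 65.4% beside 64.2% of all genes tested. With library size alone the split turned from 9 higher and 8 lower to 3 higher (SEMA4B, SEMA7A and PLXNB3) and 13 lower. A change of scaling moves all genes by nearly the same amount, so the place of a gene against the median of all genes is fixed by construction: 14 of the 26 genes lay above it.

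**Figure D2:**
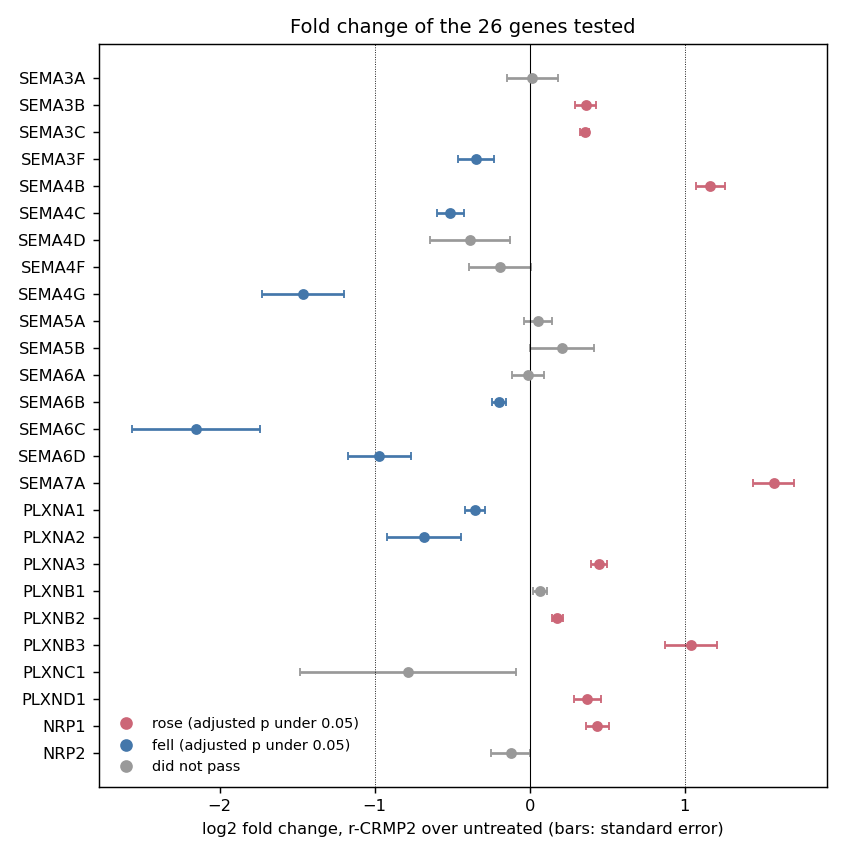
Log2 fold change of the 26 genes tested, r-CRMP2 over untreated, with the standard error as bars and dotted lines at a log2 fold change of 1 and -1. Rises beyond 1 were SEMA7A, SEMA4B and PLXNB3, falls beyond -1 were SEMA6C and SEMA4G, and SEMA6D lay at -0.97.

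The largest rise was that of SEMA7A, the semaphorin that is tied to the membrane by a lipid anchor and binds PLXNC1 and integrins (chromosome 15, 74701625 to 74726300 in the deposited hg19 coordinates, minus strand). Its CPM was 10.3, 9.09 and 8.3 without r-CRMP2 and 23.9, 28.6 and 29.9 with it. All r-CRMP2 libraries stood well above all untreated ones. The rise was 2.97-fold (log2 fold change 1.57 ± 0.134 SE, edgeR adjusted p = 4.92e-10), and it was 1.26 with library size alone. PLXNC1, its plexin receptor, was hardly expressed: 32, 14 and 30 counts without r-CRMP2 (1.15, 0.57 and 1.1 CPM) and 3, 15 and 17 counts with it (0.14, 0.758 and 0.74 CPM). The groups overlapped and the change did not pass the test (log2 fold change -0.79 ± 0.697, edgeR adjusted p = 0.15), whereas with library size alone it passed as lower (-1.10, adjusted p = 0.0436). The span of PLXNC1 also shares 1283 bases with that of CEP83 on the opposite strand, a gene with 260 counts per library beside 18.5 for PLXNC1. Without strand, reads in exon bases that both genes share could not be assigned by position. How the counting treated such reads is not given. SEMA7A and PLXNC1 are also known from leukocytes. Of 5 leukocyte markers 2 were tested and 1, CD68, rose (mean 23.1 to 74.3 CPM), which made nearly all of the summed level of 23.6 to 28 CPM in untreated and 73.6 to 80.4 CPM in r-CRMP2 libraries, while PTPRC, the defining leukocyte marker, was at a mean of 0.0174 and 0.0291 TPM.

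SEMA4B, a transmembrane class 4 semaphorin, was the second most abundant member and rose as well (chromosome 15, 90728152 to 90772892, plus strand). Untreated cells had 207, 198 and 172 CPM of it, and treated cells 416, 421 and 457 CPM. The lowest r-CRMP2 library was above the highest untreated library. The rise was 2.24-fold (log2 fold change 1.16 ± 0.0923, edgeR adjusted p = 1.23e-10) and stayed past the adjusted p threshold with library size alone, at a log2 fold change of 0.85. A pseudogene inside SEMA4B on the same strand, RPS12P26, had 30 counts per library beside 7170 for SEMA4B.

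Its class relatives moved the other way or did not pass. SEMA4G, a ligand of plexin B receptors (chromosome 10, 102732286 to 102745373, plus strand), had 49, 31 and 37 counts in untreated and 12, 7 and 15 counts in r-CRMP2 libraries, or 1.76, 1.26 and 1.35 against 0.562, 0.354 and 0.653 CPM. The groups did not overlap, and the fall was 2.75-fold (log2 fold change -1.46 ± 0.265, edgeR adjusted p = 0.00139). MRPL43, on the opposite strand and overlapping the span of SEMA4G over 7795 bases, had 1320 counts per library beside 25.2 and a log2 fold change of 0.32. Without strand, only reads in exon bases that both genes share could not be assigned by position. How many such bases there are was not checked. SEMA4C, a ligand of PLXNB2, fell (log2 fold change -0.51 ± 0.0874, edgeR adjusted p = 5.15e-05). SEMA4D, the ligand of PLXNB1, and SEMA4F had log2 fold changes of -0.38 ± 0.259 and -0.20 ± 0.2 (edgeR adjusted p = 0.0731 and 0.407). With library size alone both passed as lower (-0.69 and -0.50, edgeR adjusted p = 0.00397 and 0.0318), and SEMA4D also passed without the low-count filter (adjusted p = 0.0436) and without r-CRMP2 replicate 1 (-0.57, adjusted p = 0.0122). SEMA4A was not tested, with 10, 8 and 4 counts in untreated and 7, 1 and 8 in r-CRMP2 libraries. Within class 4, SEMA4B took 82.5% ± 1.59 of the summed TPM in the untreated group and 93.7% ± 0.728 in the r-CRMP2 group (SD, n = 3), while SEMA4C went from 14.1% to 5%. The TPM ratio of SEMA4B to SEMA4C was 6.83, 5.65 and 5.21 in untreated and 16.6, 19.1 and 20.9 in r-CRMP2 libraries. A ratio within a library does not depend on the scaling, and these did not overlap.

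**Figure D3:**
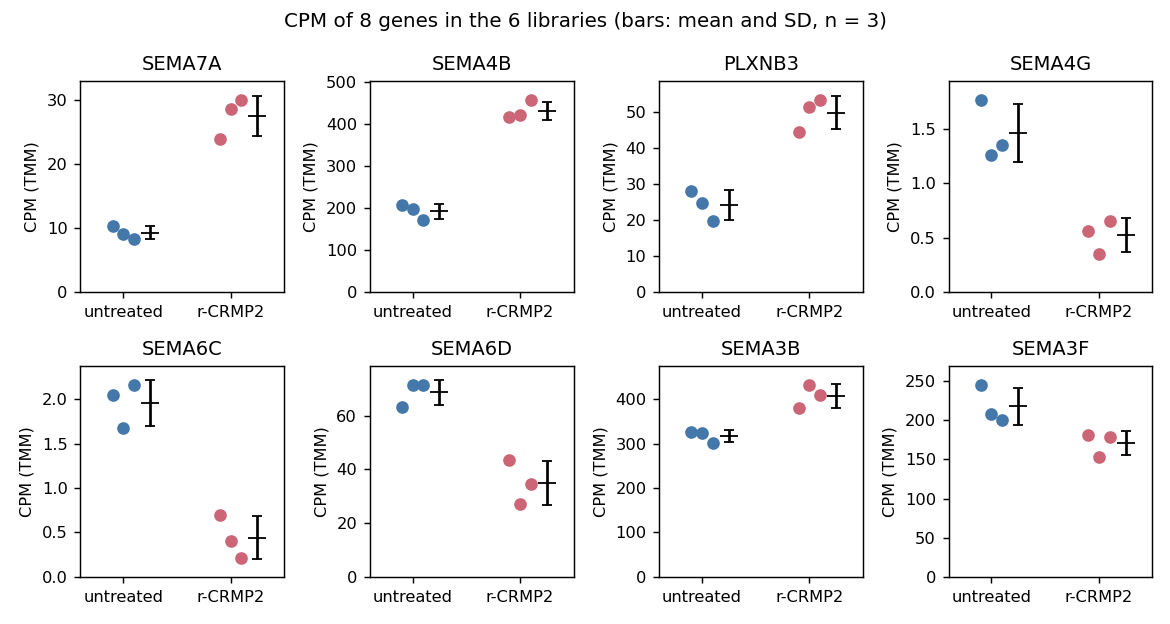
CPM of 8 members in each library, with the mean and SD of each group beside the points (n = 3) and a vertical axis from 0 in each panel. The 5 genes past both thresholds, SEMA6D and the pair SEMA3B and SEMA3F are shown, and in every panel the groups do not overlap.

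Class 6 semaphorins are transmembrane ligands of plexin A receptors, and 3 of the 4 fell, beside 30.1% of all genes tested. SEMA6C had the largest fall of the family (chromosome 1, 151104161 to 151119140, minus strand), at a low level. It had 57, 41 and 59 counts in untreated and 15, 8 and 5 counts in r-CRMP2 libraries, which is 2.05, 1.67 and 2.16 against 0.702, 0.404 and 0.218 CPM. All r-CRMP2 libraries lay below all untreated ones, and the fall was 4.44-fold (log2 fold change -2.15 ± 0.414, edgeR adjusted p = 4.66e-05). SEMA6C and SEMA4G were the 2 genes past both thresholds on the low side, and both dropped out of the test when at least 10 counts were required in every library.

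SEMA6B was the most abundant gene of class 6, with 133, 124 and 126 CPM in untreated and 115, 106 and 113 CPM in r-CRMP2 libraries. Its groups did not overlap, and the fall was small (log2 fold change -0.20 ± 0.0458, edgeR adjusted p = 0.0105). SEMA6D, a ligand of PLXNA1 that is given in full because its values stood out when seen, had 63.3, 71.2 and 71.4 CPM in untreated and 43.5, 27 and 34.4 CPM in r-CRMP2 libraries. The fall was 1.96-fold (log2 fold change -0.97 ± 0.206, edgeR adjusted p = 5.1e-07), just short of the fold threshold. SEMA6D passed that threshold with library size alone (-1.28), and also without untreated replicate 1 (-1.03) or r-CRMP2 replicate 1 (-1.14). SEMA6A did not pass (log2 fold change -0.01 ± 0.104, edgeR adjusted p = 0.979). As shares of class 6 TPM, SEMA6B went from 75.5% ± 1.77 to 84.4% ± 2.59 and SEMA6D from 23% ± 1.81 to 14.9% ± 2.47. The ratio of SEMA6B to SEMA6D was 3.71, 3.08 and 3.12 in untreated and 4.68, 6.95 and 5.77 in r-CRMP2 libraries, again without overlap.

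Among the secreted class 3 semaphorins, the neighbours SEMA3B and SEMA3F on chromosome 3 changed in opposite directions. Both act through neuropilins, and both are known as candidate tumor suppressors. SEMA3B (50304990 to 50314602, plus strand) had 326, 324 and 301 CPM in untreated and 379, 432 and 409 CPM in r-CRMP2 libraries. It rose by a log2 fold change of 0.36 ± 0.0657 (edgeR adjusted p = 9.82e-05), which was 0.05 and did not pass with library size alone (edgeR adjusted p = 0.467). SEMA3F (50192478 to 50226508, plus strand), given in full as the pair of SEMA3B, had 245, 208 and 200 CPM in untreated and 181, 153 and 179 CPM in r-CRMP2 libraries. It fell by 0.35 on the log2 scale (SE 0.119, edgeR adjusted p = 9.84e-04) and fell under both scalings. The ratio of SEMA3B to SEMA3F in TPM was 1.54, 1.8 and 1.74 in untreated and 2.42, 3.27 and 2.64 in r-CRMP2 libraries. The ratios did not overlap, whatever the scaling.

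SEMA3B took 61% ± 1.81 of class 3 TPM in the untreated group and 71% ± 3.03 in the r-CRMP2 group, and SEMA3F took 36.1% ± 1.92 and 25.9% ± 2.85. SEMA3C, which signals through both neuropilins, rose (log2 fold change 0.35 ± 0.0291, edgeR adjusted p = 0.00158) but was at 0.04 with library size alone. SEMA3A, the classic ligand of NRP1 and the founding growth cone collapsing factor, had a log2 fold change of 0.02 ± 0.166 (edgeR adjusted p = 0.932). SEMA3D, SEMA3E and SEMA3G were not tested. SEMA3G had 19, 9 and 18 counts in untreated and 7, 4 and 8 counts in r-CRMP2 libraries, without overlap, and without the low-count filter its edgeR adjusted p was 0.203. SEMA3D had 5, 3 and 2 against 2, 6 and 7 counts, and SEMA3E, the ligand that binds PLXND1 without a neuropilin, had 1, 0 and 0 against 3, 3 and 0 counts. Class 3 as a whole took 60% ± 0.481 of semaphorin TPM in untreated and 52.4% ± 1.08 in r-CRMP2 libraries.

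The class 5 semaphorins, which carry thrombospondin repeats, were low and did not pass. SEMA5B had 1.65, 1.87 and 1.28 CPM in untreated and 2.15, 1.87 and 1.52 CPM in r-CRMP2 libraries. The groups overlapped (log2 fold change 0.21 ± 0.207, edgeR adjusted p = 0.514). For SEMA5A, a ligand of PLXNB3, the log2 fold change was 0.05 ± 0.0907 (edgeR adjusted p = 0.893).

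Among the receptors, 4 plexins rose and 2 fell of 8 tested, which is 75% called beside 58.2% of all genes (28.2% higher and 30.1% lower). PLXNB3, a plexin B known mainly from the nervous system (chromosome X, 153029651 to 153044801, plus strand), had 28.1, 24.8 and 19.8 CPM in untreated and 44.6, 51.4 and 53.3 CPM in r-CRMP2 libraries. All r-CRMP2 libraries were above the untreated ones. The rise was 2.05-fold (log2 fold change 1.04 ± 0.168, edgeR adjusted p = 7.25e-08), and it was 0.73 with library size alone. It fell short of the fold threshold without untreated replicate 3 (0.91) or r-CRMP2 replicate 3 (0.99). PLXNB2, the receptor of SEMA4C and the most abundant plexin B, had 242, 256 and 243 CPM in untreated and 279, 271 and 288 CPM in r-CRMP2 libraries. This small rise passed (log2 fold change 0.18 ± 0.0348, edgeR adjusted p = 0.0158), turned to -0.13 with library size alone (adjusted p = 0.0504), and lost its call without untreated replicate 3 (adjusted p = 0.0630), without r-CRMP2 replicate 3 (adjusted p = 0.0722) and without the low-count filter (adjusted p = 0.0571). PLXNB1 did not pass with TMM (log2 fold change 0.06, edgeR adjusted p = 0.405) and was at -0.25 with library size alone (adjusted p = 0.00412).

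Plexin A receptors pair with neuropilins for class 3 semaphorins and bind class 6 semaphorins directly. PLXNA3 (chromosome X, 153686621 to 153701989), the most abundant, had 107, 111 and 102 CPM in untreated and 142, 141 and 152 CPM in r-CRMP2 libraries. It rose by a log2 fold change of 0.45 ± 0.0512 (edgeR adjusted p = 5.99e-06), and by 0.14 with library size alone, which did not pass (adjusted p = 0.0657). PLXNA1 and PLXNA2 fell instead, by 0.35 and 0.68 on the log2 scale (SE 0.0637 and 0.241, edgeR adjusted p = 2.46e-04 and 0.00372), under both scalings. The TPM ratio of PLXNA3 to PLXNA1 was 2.33, 2.39 and 2.27 in untreated and 3.92, 4.29 and 4 in r-CRMP2 libraries, so the balance between the most abundant plexin A genes moved without overlap. PLXNA4 was not tested, with 7, 10 and 4 counts in untreated and 7, 11 and 0 counts in r-CRMP2 libraries.

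PLXND1, the vessel-patterning plexin that SEMA3E binds directly, was the most abundant receptor, with 380, 361 and 322 CPM in untreated and 452, 435 and 487 CPM in r-CRMP2 libraries. It rose by a log2 fold change of 0.37 ± 0.0854 (edgeR adjusted p = 1.47e-04), which became 0.06 with library size alone (adjusted p = 0.42). Its usual ligand SEMA3E was near 0, as given above. Of 5 endothelial markers, 4 were tested and 1 (CDH5) fell, with a sum of 7.62 to 8.44 CPM in untreated and 2.48 to 3.4 CPM in r-CRMP2 libraries. Their part in the PLXND1 result was not tested. As shares of plexin TPM, PLXND1 took 39.8% and 42.1%, PLXNB2 30.6% and 28.3%, PLXNA3 12.4% and 13.8%, PLXNB1 8.41% and 7.18%, PLXNA1 5.32% and 3.39%, and PLXNB3 2.97% and 5.01% in the untreated and r-CRMP2 groups.

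**Figure D4:**
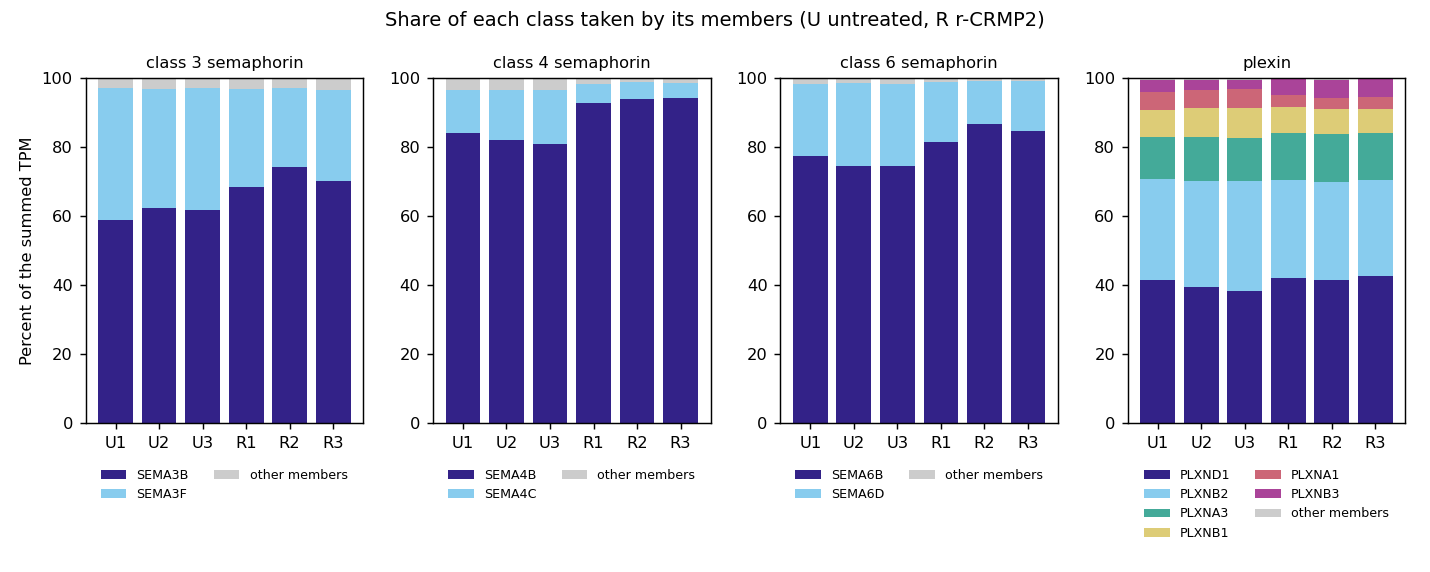
Shares of the summed TPM of class 3, class 4 and class 6 semaphorins and of plexins taken by the main genes of each, with 1 bar per library (U untreated, R r-CRMP2). SEMA3B, SEMA4B and SEMA6B take more of their class in each r-CRMP2 library than in any untreated library, and PLXNA1 takes less of the plexins.

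NRP1, the co-receptor of SEMA3A and of VEGFA (chromosome 10, 33466419 to 33623833, minus strand), had 24.7, 21.4 and 25.1 CPM in untreated and 32.4, 31.4 and 32.5 CPM in r-CRMP2 libraries. The groups did not overlap, and NRP1 rose by a log2 fold change of 0.43 ± 0.0739 (edgeR adjusted p = 1.5e-04), or by 0.12 with library size alone, which did not pass (adjusted p = 0.208). NRP2, which binds SEMA3F and the lymphatic growth factor VEGFC, had 5.07, 4.03 and 4.64 CPM in untreated and 3.74, 4.55 and 4.35 CPM in r-CRMP2 libraries. These overlapped (log2 fold change -0.12 ± 0.126, edgeR adjusted p = 0.541), and with library size alone NRP2 passed as lower (-0.43, adjusted p = 0.0259). The TPM ratio of NRP1 to NRP2 was 6.37, 6.93 and 7.05 in untreated and 11.3, 9.01 and 9.75 in r-CRMP2 libraries, which did not overlap. Of 7 such ratios between the 2 most abundant genes of a class, 6 did not overlap. The ratio of PLXNB2 to PLXNB1 was 3.62, 3.62 and 3.69 against 3.78, 3.98 and 4.07, and that of SEMA5B to SEMA5A overlapped at 2.88, 3.81 and 2.34 against 3.66, 3.19 and 3.02. The share of non-overlapping ratios among other gene pairs was not computed.

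The summed level of the 31 genes depended on the scale. In CPM after TMM scaling it was 1987, 1935 and 1805 in untreated and 2318, 2286 and 2437 in r-CRMP2 libraries, without overlap. The summed TPM was 976, 972 and 899 in untreated and 967, 882 and 988 in r-CRMP2 libraries, and there the groups overlapped. The same held for semaphorins (946 to 1053 against 1224 to 1283 CPM), plexins (829 to 904 against 1027 to 1117 CPM) and neuropilins (25.5 to 29.8 against 35.9 to 36.9 CPM), which overlapped in TPM (593 to 650 against 594 to 656, 294 to 323 against 277 to 320, and 10.2 to 11.8 against 10.9 to 12.1).

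The partner genes were 73 genes of 5 lists written from general knowledge of the system, with earlier results of these data known. All 73 were listed and 61 were tested. In the r-CRMP2 group 28 rose and 12 fell, which is 65.6% called beside 58.2% of all genes (28.2% higher and 30.1% lower). With library size alone 10 rose and 27 fell. Their median log2 fold change was 0.14. Of the ligands and co-receptors that pair with the family, 7 rose and 2 fell of 13 tested, and of the proteases that cut semaphorins or plexins, 3 rose and 1 fell of 6. The plexin effectors had 8 rises and 6 falls of 20, and the kinases and cytoskeletal effectors 7 and 3 of 18. VEGFA, the growth factor that binds NRP1, was the only partner past both thresholds, which is 1.64% of those tested beside 14% of all genes. Its CPM went from 116, 131 and 115 in untreated to 529, 672 and 650 in r-CRMP2 libraries (log2 fold change 2.35 ± 0.123, edgeR adjusted p = 9.93e-14), and the log2 fold change was 2.04 with library size alone. Of the 4 tested CRMP genes, DPYSL2, which encodes CRMP2 itself, rose by a log2 fold change of 0.66 ± 0.0532 (edgeR adjusted p = 5.48e-08). DPYSL3 and DPYSL4 rose by 0.46 ± 0.133 and 0.54 ± 0.182 (edgeR adjusted p = 3.61e-04 and 0.00501). With library size alone DPYSL2 stayed past the threshold at 0.35, while DPYSL3 and DPYSL4 were at 0.15 and 0.23 and did not pass. CRMP1 did not pass under TMM (log2 fold change -0.37 ± 0.212, edgeR adjusted p = 0.224) but passed as lower with library size alone (-0.67, adjusted p = 0.0255), and DPYSL5 was not tested.

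**Figure D5:**
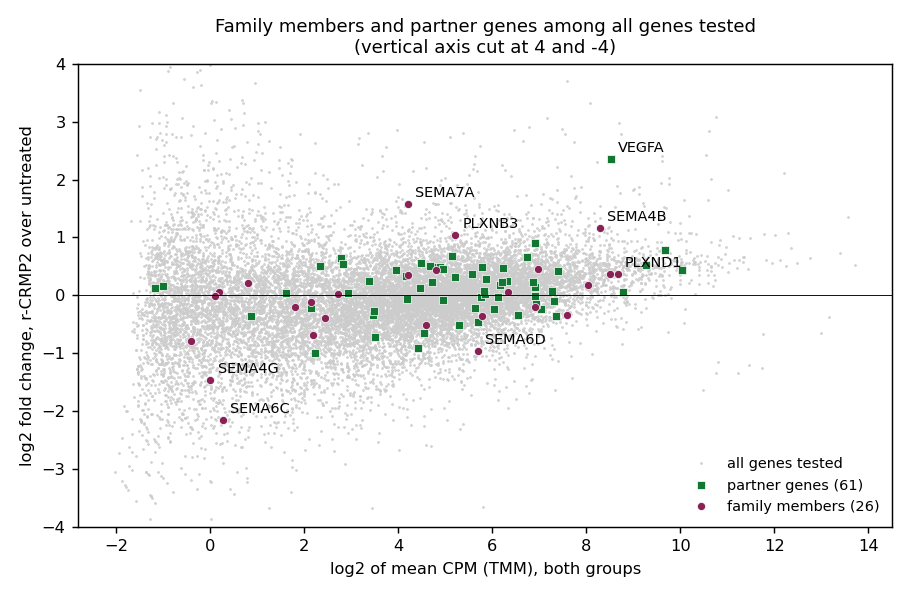
Log2 fold change against mean level (log2 CPM) for all 16222 genes tested, with the 26 family members and 61 partner genes marked. The members lie within the spread of other genes of the same level, SEMA7A, SEMA4B and PLXNB3 on the upper side and SEMA6C and SEMA4G on the lower side at low levels, and VEGFA stands above the other partners.

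The study set its comparison in a pathway of the hypoxia factor HIF-1, so the promoters of the family were searched for the core letters of its binding site, ACGTG and GCGTG, on both strands (CACGTG holds ACGTG on both). RefSeq promoters (GRCh38.p14) were at hand for 27 of the 31 genes (not for NRP1, SEMA3A, SEMA6A and SEMA6B), and the 250 bases before the first-listed start were used, with 12 genes having several starts. Of the 27 genes, 7 had either core (PLXNA4, PLXND1, SEMA3B, SEMA3D, SEMA3E, SEMA4D and SEMA6D), which is 25.9% beside 43.1% of all 27305 symbols with an entry. Counting any listed start, 11 genes (40.7%) had one beside 47.4% of all symbols, with PLXNC1, SEMA4A, SEMA4G and SEMA7A added. Of the 8 genes that rose and had an entry, 2 held a core at the first start, and of the 7 that fell, 1. A match of these letters is a description and no binding site.

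The windows shown are those of the 2 members with the largest rises and of the member with the largest fall, with no core at the first start, and of 2 abundant members that rose and hold one, so that they can be set side by side. Capitals mark the core letters on either strand. Each window runs from 5′ to 3′ along the gene toward its start, and bases annotated as untranslated region are left out at the start side (142 bases for PLXND1, 33 for SEMA6C and 11 for SEMA4B).
SEMA7A (chr15:74433959-74434208, minus strand): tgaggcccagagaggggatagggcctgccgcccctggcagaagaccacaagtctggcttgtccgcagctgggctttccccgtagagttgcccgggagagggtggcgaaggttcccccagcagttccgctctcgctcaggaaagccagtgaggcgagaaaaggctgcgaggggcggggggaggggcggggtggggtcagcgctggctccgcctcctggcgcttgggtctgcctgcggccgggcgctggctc
SEMA4B (chr15:90201080-90201318, plus strand): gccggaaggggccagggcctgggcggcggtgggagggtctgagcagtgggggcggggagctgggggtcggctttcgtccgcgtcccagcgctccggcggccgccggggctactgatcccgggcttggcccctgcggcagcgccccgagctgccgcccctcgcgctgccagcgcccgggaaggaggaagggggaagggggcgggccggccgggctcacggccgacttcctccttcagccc
SEMA6C (chr1:151146665-151146881, minus strand): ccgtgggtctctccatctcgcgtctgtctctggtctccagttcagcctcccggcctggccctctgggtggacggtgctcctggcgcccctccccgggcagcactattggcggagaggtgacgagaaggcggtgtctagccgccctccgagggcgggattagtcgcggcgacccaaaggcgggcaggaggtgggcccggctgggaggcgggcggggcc
SEMA3B (chr3:50272869-50273118, plus strand): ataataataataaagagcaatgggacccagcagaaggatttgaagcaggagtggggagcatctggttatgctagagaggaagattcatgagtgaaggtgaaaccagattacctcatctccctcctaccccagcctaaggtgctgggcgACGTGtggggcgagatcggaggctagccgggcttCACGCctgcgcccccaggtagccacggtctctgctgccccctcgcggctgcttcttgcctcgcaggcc
PLXND1 (chr3:129606819-129606926, minus strand): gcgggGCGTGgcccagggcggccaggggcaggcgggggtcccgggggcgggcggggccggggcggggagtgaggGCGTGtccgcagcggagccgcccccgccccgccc

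In SEMA3B the cores began 102 bases (ACGTG) and 68 bases (GCGTG on the other strand) before the first-listed start. In PLXND1 they began 245 and 176 bases before it (both GCGTG). The windows of SEMA7A, SEMA4B and SEMA6C at the first-listed start held no core. A first-listed start need not be the outermost one, and SEMA3B has 5 listed starts, SEMA4B 3 and SEMA7A 2. For SEMA3B it lies inside the deposited gene, judged by the place of its neighbour SEMA3F in both builds. Whether this also holds for SEMA4B was not checked.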

How the data were processed

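Polyadenylated RNA of 6 A2780 libraries (3 untreated, 3 r-CRMP2) was sequenced by the authors with a kit that does not mark strand. The authors deposited, per library, raw read counts per gene and TPM values computed by them from counts and gene length. The submitters' processing notes name hg19, HISAT2, FastQC and DESeq2, without versions; the counting tool is not given in the sources used here. The members and the partner and marker lists were chosen with earlier results of these data known. Full values were given for members past both thresholds, both neuropilins and the most abundant gene of each class by TPM. SEMA6D and SEMA3F were added after their values were seen.

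The groups were tested in R 4.3.3 with edgeR 4.0.16 (glmQLFit and glmQLFTest; limma 3.58.1), on counts scaled by TMM and kept by filterByExpr, and p-values were adjusted by Benjamini-Hochberg over the 16222 genes tested. Rose and fell mean an adjusted p under 0.05. Each SE was computed from the replicate spread of log2 CPM (prior count 2). Values after ± are SE for fold changes and SD for levels and shares. Depth was 21888530 to 25711353 counts per library, which limits genes under about 10 counts. The test was tried on simulated counts first. Far fewer genes were changed there than were called in these data, and equally in both directions. That trial therefore says nothing about the choice of scaling here. The results were recomputed with each library left out, with the replicate number as a block, with a test against a fold of 2, with scaling by library size alone or by RLE, with DESeq2 1.42.0, without the filter and with a minimum of 10 counts per library. The replicate numbers did not pair the libraries: same-numbered libraries had deviations correlated at -0.021, 0.0038 and -0.025.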

Additional observations from a re-analysis of the deposited data

How the results depend on the processing

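DESeq2 and RLE size factors gave 9 members higher and 8 lower, 3 and 2 of them past a log2 fold change of 1, and 28 and 12 partner genes, as did TMM with edgeR. With library size alone, members were 3 higher and 13 lower (1 and 4 past the fold threshold) and partner genes 10 higher and 27 lower. By construction that setting moves all genes, and 14 of the 26 member results changed their call or sign with it. The signs turned for PLXNB1 (-0.25), PLXNB2 (-0.13), SEMA3A (-0.29), SEMA5A (-0.26) and SEMA5B (-0.10). NRP2, PLXNC1, SEMA4D and SEMA4F gained a call as lower there, and NRP1, PLXNA3, PLXND1, SEMA3B and SEMA3C lost their call as higher. Requiring at least 10 counts in every library left 0 members past both thresholds on the low side, because SEMA4G and SEMA6C were then not tested (23 members were). A test against a fold of 2 left 1 member higher and 1 lower. Leaving out single libraries gave 8 to 9 members higher, 8 to 9 lower, 2 to 3 and 2 to 3 past the fold threshold, and 25 to 28 and 11 to 13 partner genes. Small values changed sign there: SEMA3A between -0.12 and 0.16, SEMA5A between -0.0047 and 0.13, and SEMA6A between -0.076 and 0.091. SEMA6A was also at 0.009 with RLE and 0.008 with DESeq2. With the replicate number as a block, 9 members were higher and 8 lower, the same 17 genes, 3 and 2 past the fold threshold, with 27 and 12 partner genes. The block changed no other call among the members. Counts under about 10 per library, as for SEMA3D, SEMA3E, SEMA4A and PLXNA4, limit what could be seen.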
